A study of Homo sapiens with 6 samples.

Results

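The genes described are TXNIP, ARRDC1, ARRDC2, ARRDC3 and ARRDC4, which encode 5 alpha-arrestins, and MLXIP, which encodes a glucose-responsive transcription factor that acts on TXNIP and ARRDC4. They are 6 of the 58219 genes counted, and all 6 were among the 14723 with enough reads to be tested. They were chosen by name with results of these same libraries known, so their differences between the groups are given as a description, without p-values.

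RNA came from SNU-449, an established human hepatocellular carcinoma line. Per the labels, 3 libraries come from a line with stable expression of the wild-type kinase (Yes WT) and 3 from one that stably expresses Yes T348I, which carries a change at the gatekeeper residue of the kinase. Yes is a SRC family tyrosine kinase, and the gatekeeper residue lines the pocket in which inhibitors such as dasatinib bind. Both groups were given dasatinib at 100 nM, so all values describe drug-treated cells, and the comparison asks which transcripts differ with the altered kinase present under the drug. The labels do not say whether the lines are clones, nor whether the 3 libraries of a group were separate cultures, so errors and p-values cover only the spread between these libraries.

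Alpha-arrestins are adaptor proteins with an arrestin fold. Most carry short motifs in their tails that bind NEDD4-type ubiquitin ligases, and they bring these ligases to receptors and transporters in the cell membrane, which are then internalised or sorted. TXNIP, the best known of them, also binds thioredoxin and lowers glucose uptake by drawing glucose transporters from the surface. The protein of MLXIP, often called MondoA, pairs with MLX, moves to the nucleus when glucose 6-phosphate builds up and binds paired E-box sequences at TXNIP and ARRDC4, so that both transcripts are widely read as reporters of glucose sensing.

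TXNIP was at about 0.56 of its Yes WT level in Yes T348I, and ARRDC3 was lower by a similar ratio at a far higher level. ARRDC1 and ARRDC2 differed by less, and ARRDC4 and MLXIP did not differ beyond their spread. In the fit across all genes, 4 of the 6 members were called lower in Yes T348I (TXNIP, ARRDC1, ARRDC2 and ARRDC3), where 27.3% of all genes tested were called lower. None was called higher, where 28.0% of all genes were, and 55.3% of all genes were called in either direction at an adjusted p under 0.05. None of the 6 was called with a difference of at least 2-fold, which 4.08% of all genes reached. In 3 of the 6 (TXNIP, ARRDC1 and ARRDC3) every Yes T348I library was below every Yes WT library, as in 29.7% of all genes tested, and in 0 every one was above, as in 29.9%. The edgeR quasi-likelihood test also gave 0 higher members at an unadjusted p under 0.05, and DESeq2 and limma-voom gave 0. The median log2 fold change was -0.26 over the 6 members and -0.013 over all genes tested. These counts were part of what chose the genes and support nothing further. In bulk RNA, fewer cells of one kind and less RNA per cell cannot be told apart.

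TXNIP (ENSG00000265972.5) lies on the minus strand of chromosome 1, 145992435 to 145996600 in GRCh38. Levels are given as CPM, the reads of a gene scaled to the same total in each library. TXNIP gave 9.84, 9.20 and 10.2 CPM in Yes WT replicates 1 to 3, and 6.05, 5.21 and 4.86 CPM in Yes T348I replicates 1 to 3. Every Yes T348I library was below every Yes WT library. These levels rest on 133 to 161 reads per library in Yes WT and 69 to 118 in Yes T348I. The means were 9.74 ± 0.488 and 5.38 ± 0.609 CPM (SD, n = 3 each). On the log2 scale the difference was -0.84 (SE 0.12, 95% interval -1.07 to -0.61), and Yes T348I held 0.559 of the Yes WT level. The coefficient of variation between libraries was 5.01% in Yes WT and 11.3% in Yes T348I, beside 8.20% and 10.7% that counting error alone gives at these reads. With each library left out in turn, the log2 fold change was -0.94 to -0.77.

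ARRDC3 (ENSG00000113369.8), on the minus strand of chromosome 5, 91368724 to 91383359, encodes an adaptor known for directing the beta2-adrenergic receptor and integrin beta4 to ubiquitin ligases. It stood at 79.5, 83.4 and 83.8 CPM in the Yes WT libraries and at 51.7, 54.7 and 48.9 CPM in the Yes T348I libraries. The groups were far apart, with the lowest Yes WT library well above the highest Yes T348I library. The log2 fold change was -0.67 (SE 0.05, 95% interval -0.76 to -0.57), a fall to 0.630 of the Yes WT level, resting on at least 694 reads in each library. The ratio of TXNIP to ARRDC3 was nearly the same in both groups. Its log2 value was -3.18 to -3.01 in Yes WT and -3.39 to -3.10 in Yes T348I, and these ranges overlap.

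ARRDC1 (ENSG00000197070.13; chromosome 9, 137605654 to 137615360, plus strand) encodes the member that drives budding of small vesicles from the cell membrane together with TSG101. Its values were 16.3, 16.9 and 18.2 CPM in Yes WT and 15.7, 14.5 and 14.5 CPM in Yes T348I. The groups did not overlap, but Yes T348I replicate 1 came close to Yes WT replicate 1. The log2 fold change was -0.20 (SE 0.08), and ARRDC1 was no longer called with DESeq2, with no low-count filter, or without Yes T348I replicate 2 or 3 or Yes WT replicate 2 or 3 (-0.20 to -0.15). Of all exon bases of ARRDC1, 183 are shared with an unnamed transcript on the same strand, AL590627.2, and 29 lie opposite ARRDC1-AS1. Reads on the opposite strand of ARRDC1 came to 271 over the 6 libraries, or 18.0% of its 1505 counted reads, against 0.423% to 1.86% at the other 5 genes. ARRDC2 (442 exon bases) and ARRDC3 (145) also lie opposite other annotated transcripts, which the strand-specific counts keep apart.

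ARRDC2 (ENSG00000105643.9; chromosome 19, 18001132 to 18014102, plus strand) encodes a less studied adaptor of the same family. It stood at 10.4, 10.7 and 7.62 CPM in Yes WT and at 7.28, 7.82 and 7.97 CPM in Yes T348I. Yes WT replicate 3 fell among the Yes T348I libraries, so the groups overlap. The log2 fold change was -0.32 (SE 0.12). It was -0.46 without Yes WT replicate 3. ARRDC2 was no longer called without Yes WT replicate 1 (-0.25), Yes WT replicate 2 (-0.24) or Yes T348I replicate 1 (-0.27), or with DESeq2 (-0.32).

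ARRDC4 (ENSG00000140450.8; chromosome 15, 97960698 to 97973838, plus strand) shares with TXNIP its control by MLXIP and a role in lowering glucose uptake. It was the least expressed of the 6, at 2.87, 1.45 and 1.74 CPM in Yes WT (47, 21 and 26 reads) and 1.90, 2.19 and 2.04 CPM in Yes T348I (37, 32 and 29 reads). All 3 Yes T348I libraries lay within the range of Yes WT. The log2 fold change was -0.01, with a 95% interval of -0.48 to 0.45. This interval and that of TXNIP (-1.07 to -0.61) are descriptions and do not test the genes against each other. The result depends on Yes WT replicate 1, without which the log2 fold change of ARRDC4 was 0.34, still not called. The log2 ratio of TXNIP to ARRDC4 was 1.78, 2.66 and 2.55 in the Yes WT libraries and 1.67, 1.25 and 1.25 in the Yes T348I libraries. All Yes T348I ratios were lower, though Yes WT replicate 1 was close to Yes T348I replicate 1. No test was made of this ratio, since both genes were chosen on this comparison.

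MLXIP (ENSG00000175727.13; chromosome 12, 122078722 to 122147347, plus strand) was at 53.3, 54.6 and 57.2 CPM in Yes WT and 55.4, 58.0 and 60.4 CPM in Yes T348I. The groups overlap. The log2 fold change was 0.07 (SE 0.05), with a 95% interval of -0.03 to 0.17, and it was 0.030 to 0.11 over the 15 alternatives. These are levels of the transcript, and the activity of MondoA is set largely by its entry into the nucleus, which was not measured.

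**Figure D1:**
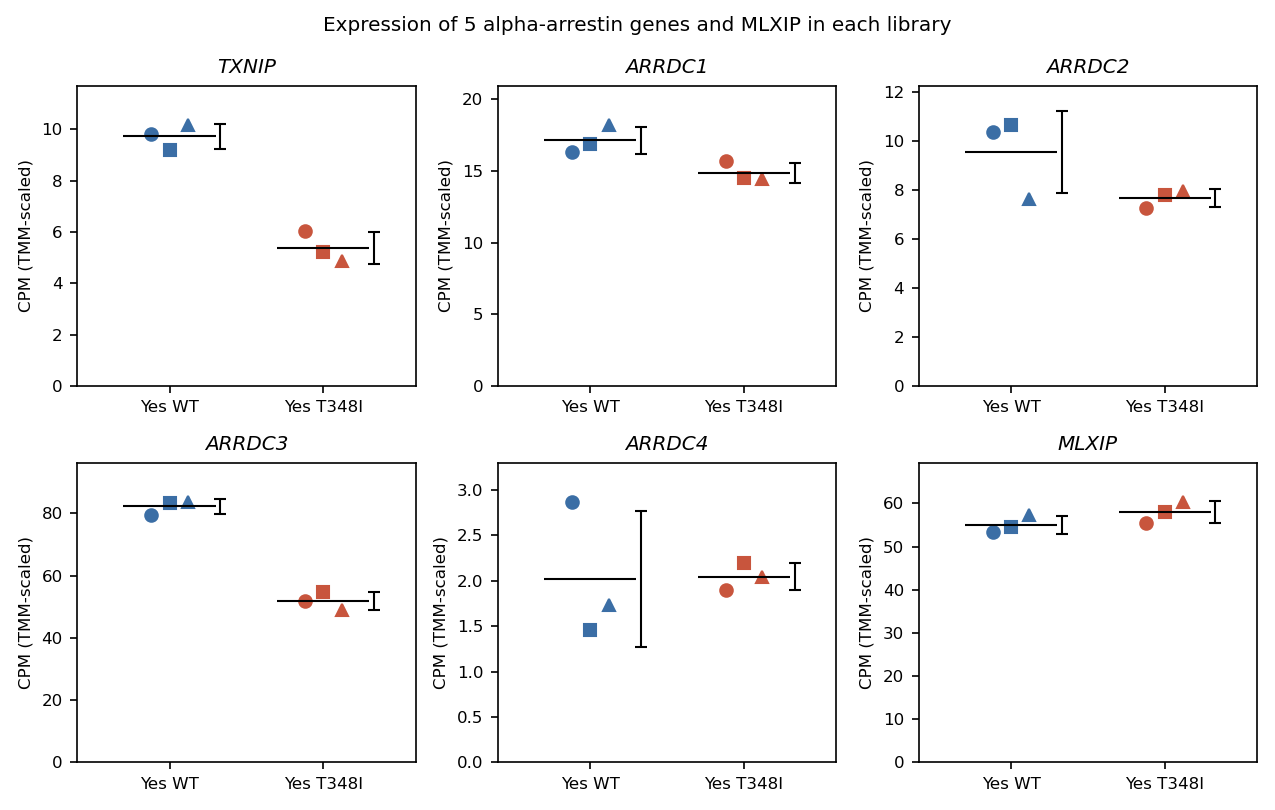
Expression of the 6 genes in each library, as TMM-scaled CPM on linear axes that start at 0, with Yes WT in blue and Yes T348I in red. Circles, squares and triangles are replicates 1, 2 and 3, horizontal lines are means and bars to the right are SDs (n = 3). TXNIP and ARRDC3 part the groups widely (9.74 against 5.38 and 82.2 against 51.8 CPM), while ARRDC2, ARRDC4 and MLXIP overlap.

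**Figure D2:**
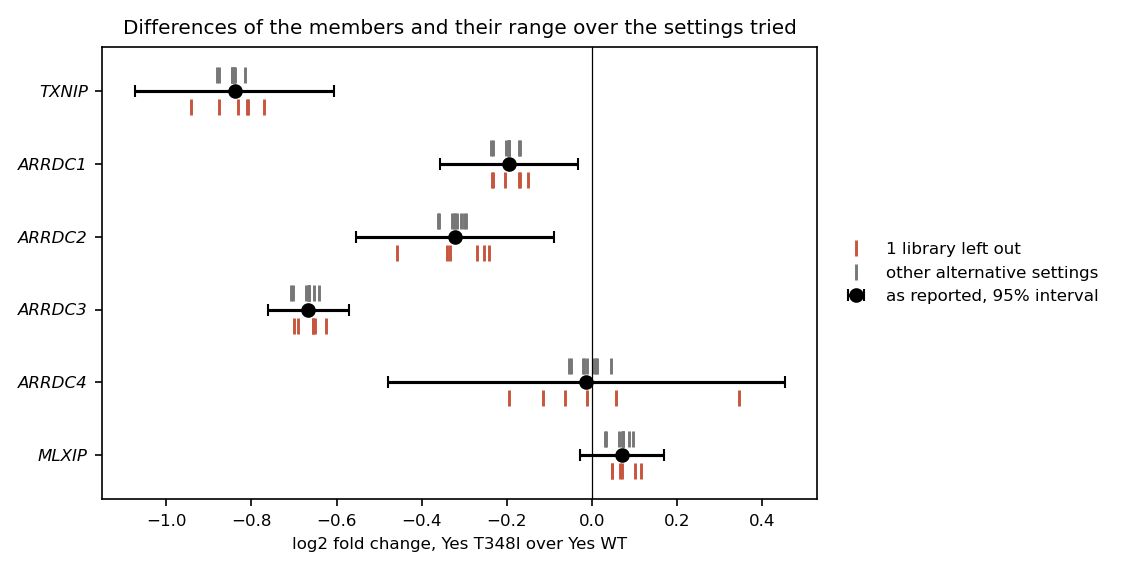
Log2 fold change of each gene, Yes T348I over Yes WT, with its 95% interval (black), the values with 1 library left out (red ticks) and the values under the other settings (grey ticks). TXNIP and ARRDC3 stay at or below -0.62 in every setting drawn, and ARRDC4 spans 0, from -0.20 to 0.34.

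The levels of different genes were compared per kilobase of exon, since longer transcripts yield more reads. In Yes WT the order was ARRDC3 at 16.7 ± 0.481 CPM per kb (SD, n = 3), ARRDC1 at 4.48 ± 0.251, MLXIP at 3.96 ± 0.145, TXNIP at 2.69 ± 0.135, ARRDC2 at 2.06 ± 0.362 and ARRDC4 at 0.496 ± 0.184. No neighbours in this order overlapped over their 3 libraries. In Yes T348I the order was ARRDC3 at 10.5 ± 0.581, MLXIP at 4.17 ± 0.182, ARRDC1 at 3.89 ± 0.186, ARRDC2 at 1.66 ± 0.0778, TXNIP at 1.48 ± 0.168 and ARRDC4 at 0.502 ± 0.0365 CPM per kb. There, MLXIP and ARRDC1 overlapped, as did ARRDC2 and TXNIP. Among all tested genes, the level of TXNIP per kb was at percentile 36.2 in Yes WT and 26.1 in Yes T348I, and that of ARRDC3 at 81.8 and 70.5.

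Most alpha-arrestin transcript was ARRDC3. It made up 63.1% ± 1.10 (SD, n = 3) of the summed level per kb of the 5 alpha-arrestins in Yes WT and 58.2% ± 1.39 in Yes T348I. The share of ARRDC1 was 17.0% ± 0.792 in Yes WT and 21.6% ± 1.04 in Yes T348I, with no overlap, and TXNIP held 10.2% ± 0.524 and 8.22% ± 0.782. The summed level itself was 26.0, 26.5 and 26.6 CPM per kb in Yes WT and 18.3, 18.5 and 17.3 in Yes T348I. Exon lengths are unions over annotated transcripts, so a gene used mainly in a short form reads too low on this scale.

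**Figure D3:**
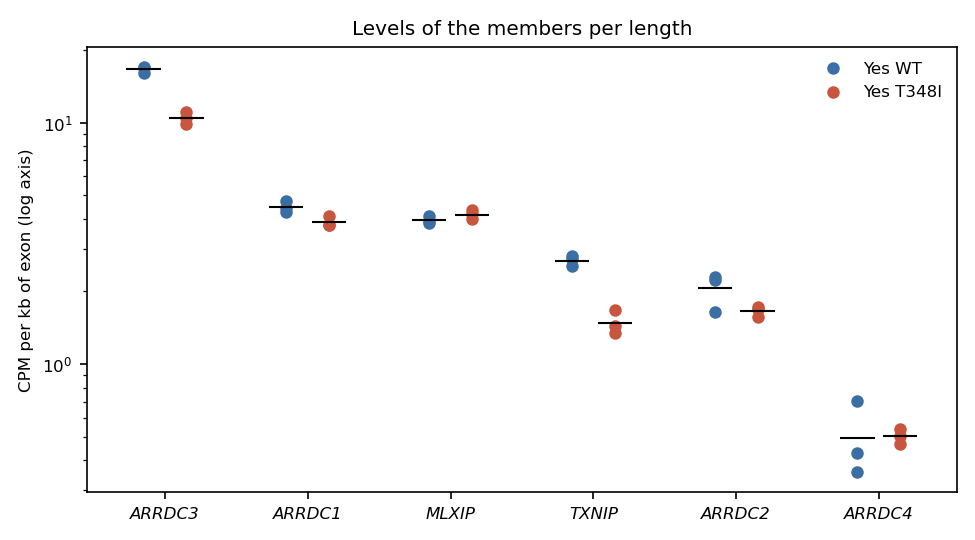
Level of each gene in CPM per kb of exon on a log axis, 1 point per library and a line at the mean, ordered by the Yes WT mean. ARRDC3 is highest in both groups (16.7 and 10.5 CPM per kb), and TXNIP passes from above ARRDC2 in Yes WT to level with it in Yes T348I.

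The promoters of these genes were read for the sequences that MondoA and other factors bind. RefSeq windows of 300 bases on GRCh38.p14, from 250 bases before to 50 after an annotated start, were found for all 6 genes, 9 windows in all because TXNIP, ARRDC2 and ARRDC3 have more than 1 start. The stretches of TXNIP and ARRDC4 below are shown because these are the known MondoA targets, and that of ARRDC3 because it holds an octamer also found in TXNIP. Capitals mark the forkhead octamer TTGTTTAC, on either strand, and E-box letters (a pair of CACGNG 5 bases apart in TXNIP, CACGTG in ARRDC4). All are written 5′ to 3′ on the strand of the gene.
TXNIP, chr1:145996610-145996829, minus strand: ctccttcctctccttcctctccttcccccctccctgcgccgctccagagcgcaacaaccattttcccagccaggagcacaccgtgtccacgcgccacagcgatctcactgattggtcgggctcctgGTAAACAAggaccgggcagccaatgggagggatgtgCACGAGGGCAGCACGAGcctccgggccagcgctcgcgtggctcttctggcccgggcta
ARRDC4, chr15:97960453-97960672, plus strand: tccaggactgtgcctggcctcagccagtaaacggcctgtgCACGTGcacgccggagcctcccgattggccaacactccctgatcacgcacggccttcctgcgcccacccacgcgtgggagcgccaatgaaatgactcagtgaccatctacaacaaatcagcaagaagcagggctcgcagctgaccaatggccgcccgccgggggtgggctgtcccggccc
ARRDC3, chr5:91380098-91380197, minus strand, before an internal start: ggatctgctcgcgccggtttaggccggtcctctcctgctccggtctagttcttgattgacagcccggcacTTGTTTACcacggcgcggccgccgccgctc

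In TXNIP the pair begins 88 bases before the start, and windows with such a pair of CACGNG on either strand made up 0.057% of all 35116 windows. No window of the 6 genes held a pair of exact CACGTG 5 bases apart (0.0057% of all windows). A single CACGTG was found in ARRDC4 alone, 210 bases before its start (7.26% of all windows). It is also a match of the looser E-box CANNTG, which occurred in windows of ARRDC3 and ARRDC4 (68.7% of all windows). TTGTTTAC, the core recognised by FOXO factors, lay 124 bases before the start of TXNIP, on the opposite strand, and 30 bases before an internal start of ARRDC3 (0.954% of all windows). The internal start lies within an intron of the protein-coding ARRDC3 transcript and serves noncoding forms, and there the octamer overlaps the CANNTG match. The window at the outermost start of ARRDC3 did not hold it. CCAAT was found in 6 of the 9 windows (34.6% of all windows), with at least 1 for each of the 6 genes. TGANTCA, an AP-1 core, was found in ARRDC2 and ARRDC4 (7.71%), TGACGTCA, a cyclic AMP response element, in MLXIP (1.85%), and TATAAA in ARRDC2 (11.5%). The full glucocorticoid response element was found in none (0.00285%). Both strands were searched for all 10 patterns. Apart from CACGTG, its exact pair and CANNTG, the patterns were picked after the values of the genes were known. The looser CACGNG pair found in TXNIP is among these later patterns, so its low share over all windows tests nothing. A match describes letters and does not show that a factor binds.

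The partners of MLXIP were mixed. MLX, with which MondoA binds DNA, was at 61.9 ± 5.25 CPM in Yes WT and 70.0 ± 2.61 in Yes T348I (SD, n = 3 each; log2 fold change 0.18, edgeR adjusted p = 0.0025), a rise that did not pass without Yes WT replicate 1 (0.11, adjusted p = 0.076). MLXIPL, which encodes ChREBP, the close relative of MondoA that dominates in liver, was barely expressed, at 1.34, 2.01 and 1.27 CPM in Yes WT and 0.77, 0.48 and 0.56 CPM in Yes T348I. Its log2 fold change was -1.29 (SE 0.31; edgeR adjusted p = 5.34e-04), which rests on 7 to 29 reads per library. Of 11 tested genes of the wider MLX and MAX network, 7 fell and 2 rose, with a median log2 fold change of -0.30. This count and those of the lists that follow are to be read against the 27.3% of all genes called lower and the 28.0% called higher. All 7 that fell encode MLXIPL or MAX partners that act largely as repressors of E-box genes. MXD4 fell by 1.18 (SE 0.07, adjusted p = 1.49e-18), MNT by 0.82 (SE 0.07, adjusted p = 6.26e-14) and MXI1 by 0.69 (SE 0.06, adjusted p = 2.34e-13), while MYC rose by 0.50 (SE 0.04, adjusted p = 4.99e-15).

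In a list of other genes linked to carbohydrate response, 8 of 13 tested fell and 3 rose, with a median log2 fold change of -0.13. With DESeq2, 5 were lower. HBP1 and FADS1, both among the 8, are less sure members of this list than the others. HBP1, a repressor of cell cycle genes, fell from 73.9 ± 1.19 to 39.4 ± 3.70 CPM (SD, n = 3 each; log2 fold change -0.90, edgeR adjusted p = 1.72e-18). The lipid desaturases SCD and FADS1 fell by 0.49 (SE 0.03, adjusted p = 3.50e-16) and 0.32 (SE 0.03, adjusted p = 6.30e-11), again in log2 units. KLF10, a zinc finger factor with a carbohydrate response element, rose by 0.45 (SE 0.05, adjusted p = 4.29e-10), opposite to TXNIP. The liver-type genes PKLR, G6PC1, FGF21 and THRSP gave at most 1 read in any library and were not tested.

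Of 13 tested genes of glucose entry and hexose phosphorylation, 3 rose and 4 fell (median -0.05). Together 53.8% of them were called, near the 55.3% of all genes tested. SLC2A1, which encodes the transporter GLUT1 that TXNIP draws from the surface, rose from 119 ± 2.21 to 147 ± 8.89 CPM (SD, n = 3 each; log2 fold change 0.31, SE 0.04, edgeR adjusted p = 1.42e-08). Transporter protein at the surface was not measured. HKDC1, a hexokinase domain protein, rose by 0.29 (SE 0.04, edgeR adjusted p = 6.93e-08). The minor transporter genes SLC2A12 and SLC2A11 fell by 1.08 (SE 0.12, adjusted p = 6.16e-10) and 0.83 (SE 0.10, adjusted p = 3.01e-09). Of the thioredoxin system, 4 of 14 tested genes rose and 3 fell (median 0.02), so that 50% were called, also near the share over all genes. TXN, the thioredoxin that TXNIP binds, rose by 0.13 (SE 0.03, adjusted p = 0.0015) and the mitochondrial peroxiredoxin PRDX3 by 0.18 (SE 0.03, adjusted p = 1.80e-05). PRDX5 fell by 0.32 (SE 0.04, adjusted p = 7.65e-08) and MAP3K5, which encodes the stress kinase ASK1 held by thioredoxin, by 0.34 (SE 0.08, adjusted p = 4.91e-04).

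Of the ubiquitin ligases that alpha-arrestins recruit, the 4 named here for their lowest adjusted p were higher. Of 10 tested ligases and adaptors in the list, 5 rose and 1 fell (median log2 fold change 0.15). Together 60% of them were called, near the 55.3% of all genes tested. SMURF2 rose from 119 ± 2.82 to 234 ± 9.00 CPM (SD, n = 3 each; log2 fold change 0.98, edgeR adjusted p = 7.25e-25). NEDD4 rose from 183 ± 3.25 to 285 ± 5.91 CPM (0.64, adjusted p = 5.21e-20) and NEDD4L from 120.0 ± 3.12 to 191 ± 7.40 CPM (0.67, adjusted p = 4.75e-19). ITCH, which binds TXNIP and ARRDC1, rose by 0.20 (SE 0.04, adjusted p = 6.87e-05). The gene that fell was NDFIP1, an adaptor of these ligases named here after its value was seen, with a log2 fold change of only -0.09 (SE 0.04; adjusted p = 0.041), and with DESeq2 the list held 0 lower genes.

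Among the ESCRT genes that act with ARRDC1 in vesicle budding, 4 of 10 rose and 3 fell (median 0.09), all by little. VPS37B and VPS37A rose by 0.24 (SE 0.06) and 0.18 (SE 0.04) and VPS28 fell by 0.26 (SE 0.06) on the log2 scale, while VPS4A rose by 0.21 (SE 0.06), though by only 0.03 and without passing in the unstranded counts. Described cargoes of alpha-arrestins split, with 2 of 8 higher and 4 lower (median 0.01). These are transcript levels, and the handling of the cargo proteins was not measured. ITGB4, the integrin subunit known as a cargo of ARRDC3, fell from 88.4 ± 3.86 to 30.4 ± 4.06 CPM (SD, n = 3 each; log2 fold change -1.52, edgeR adjusted p = 1.14e-24). F2R, a thrombin receptor, fell by 0.44 (SE 0.04, adjusted p = 3.47e-12), and EGFR rose by 0.61 (SE 0.04, adjusted p = 2.46e-18).

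The beta-arrestins, the better known relatives that bind activated receptors, moved apart. ARRB1 fell from 12.8 ± 1.05 to 7.47 ± 1.30 CPM (SD, n = 3 each; log2 fold change -0.76, SE 0.11, edgeR adjusted p = 1.07e-07). ARRB2 rose by 0.13 (SE 0.06, adjusted p = 0.044), a call lost in 10 of 15 alternatives, among them 2 of 3 other scalings. RGP1, a Golgi protein with an arrestin fold, fell by 0.18 (SE 0.04, adjusted p = 5.76e-04). Of 6 tested genes of this list, 2 fell and 1 rose (median -0.05), so that 50% were called, near the 55.3% of all genes tested. The visual arrestin genes SAG and ARR3, and ARRDC5, the remaining alpha-arrestin, gave 0 or 1 read per library.

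FOXO factors are transcription factors that insulin signalling holds out of the nucleus. Of 11 tested genes in the list of FOXO factors and responsive genes, 10 fell and none rose, where 27.3% of all genes tested were lower and 28.0% higher. TRIB1 was not called (log2 fold change -0.03, edgeR adjusted p = 0.54), and FOXO6 had too few reads to be tested. The median log2 fold change of the list was -1.08, beside -0.013 over all genes tested. No test was made of the list as a whole, nor of any relation to TXNIP or ARRDC3. The edgeR test gave 0 higher genes at an unadjusted p under 0.05, and DESeq2 and limma-voom gave 0. All of these tools used the same 6 libraries, so they do not repeat the result. The factor genes FOXO1, FOXO3 and FOXO4 are themselves among those that fell. KLHL24, a ubiquitin ligase adaptor, fell from 67.5 ± 4.14 to 20.7 ± 2.24 CPM (SD, n = 3 each; -1.69, adjusted p = 3.25e-25). BCL6, a transcriptional repressor, fell by 1.17 (SE 0.06). FOXO1 itself fell by 1.08 (SE 0.11, edgeR adjusted p = 2.92e-11) and the insulin receptor adaptor gene IRS2 by 0.37 (SE 0.04, adjusted p = 7.36e-11). The list was drawn up with BCL6 already known to be lower in these libraries, so its counts support nothing further.

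Glucocorticoids raise several alpha-arrestin transcripts. Of 9 tested genes of the glucocorticoid list, 5 fell and 2 rose (median -0.37), with CEBPD lower by 0.84 (SE 0.06), ERRFI1 by 0.50 (SE 0.03) and KLF9 by 1.02 (SE 0.13) on the log2 scale, and SGK1 higher by 0.79 (SE 0.04, edgeR adjusted p = 6.83e-21). CEBPD was known to be lower when the list was made. AMPK marks TXNIP protein for degradation. Of 7 tested AMPK genes, 3 rose and 1 fell (median 0.06), so that 57.1% were called, near the 55.3% of all genes tested. PRKAG2, a regulatory subunit, rose by 0.90 (SE 0.05, adjusted p = 9.65e-20), and the catalytic subunit gene PRKAA2 fell by 0.34 (SE 0.08, adjusted p = 5.71e-04). The rises of STK11, the gene of the AMPK-activating kinase LKB1 (0.15), and PRKAA1, a catalytic subunit gene (0.11), did not pass with DESeq2, upper quartile factors or library size only. Each also kept its call in only 3 of the 6 fits with a library left out. Neither AMPK activity nor TXNIP protein was measured.

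**Figure D4:**
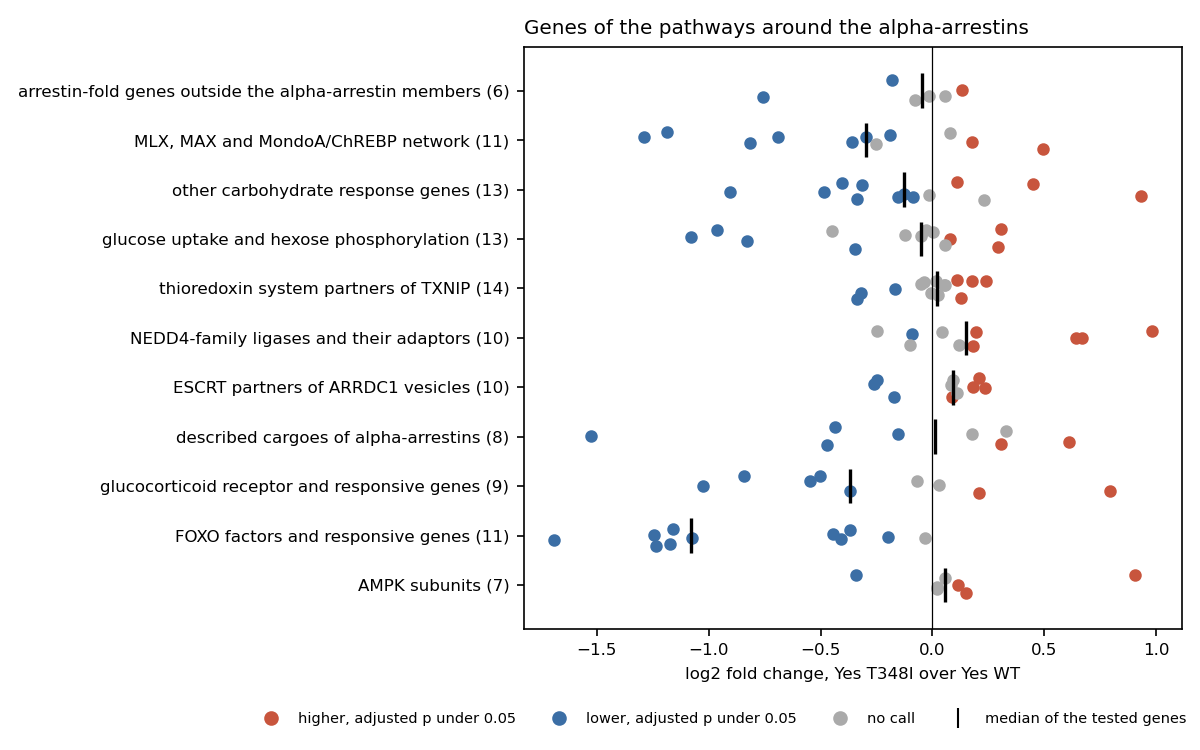
Log2 fold change of each tested gene in the 11 lists, 1 point per gene, red where called higher, blue where called lower and grey where not called at an adjusted p of 0.05. Numbers in brackets are genes tested and black bars are medians. The FOXO list lies to the left (median -1.08), and the NEDD4 list reaches furthest right, to 0.98 for SMURF2.

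Over the 6 libraries, the genes whose profile was most like that of TXNIP were CEBPD, IFI35, TNS2, PLA2G6 and DKK1. Their root mean square difference from TXNIP in centred log2 CPM was 0.031 to 0.062, the smallest among 13204 genes with a symbol and a mean of at least 1 CPM. Their levels ranged from 3.55 CPM (PLA2G6) to 881 CPM (DKK1) in Yes WT. The measure takes in the group difference itself, so genes with a fold change like that of TXNIP come first. Their log2 fold changes ran from -0.93 (TNS2) to -0.75 (IFI35). Shared control with TXNIP was not tested. For ARRDC4 the nearest were SPEN-AS1, PWAR5, ZNF860, MTATP8P2 and DUSP9, at 0.079 to 0.12. Like ARRDC4, all of them were highest in Yes WT replicate 1 and rested on few reads. SPEN-AS1, for example, had 33, 16 and 17 reads in Yes WT.

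Gene counts totalled 14360137 to 19608763 per library. The replicates of a group differed by more than reads drawn at random would. Pairwise chi-square values divided by their degrees of freedom were 1.48 to 5.20, the highest between Yes T348I replicates 1 and 2. The spread beyond counting error was still small. The edgeR fit put it at a common coefficient of variation of 2.83% over the genes tested. Of 10 hepatocyte markers only TF and AFP reached a mean of 1 CPM in a group, and ALB had at most 10 reads, so defining hepatocyte transcripts were almost absent. Their summed level was 5.33 to 6.55 CPM in Yes WT and 2.67 to 4.56 in Yes T348I. Summed leukocyte markers (1 of 6 genes reaching a mean of 1 CPM) were 2.56 to 2.94 and 0.423 to 1.28 CPM, with CD3E at 0, and summed endothelial markers (0 of 5) were 1.14 to 1.53 and 0.480 to 0.564 CPM, with TEK at 0. Stellate cell and fibroblast markers (2 of 5, mostly RGS5) summed to 136 to 148 and 147 to 162 CPM, and cholangiocyte markers (2 of 5, KRT7 and SOX9) to 397 to 428 and 712 to 799 CPM. The part of these differences in the values of the alpha-arrestins was not tested.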

How the data were processed

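PolyA RNA of 6 SNU-449 libraries was counted per gene. The authors deposited raw counts of reads per Ensembl gene, 1 file per library, as unstranded, forward-strand and reverse-strand columns. Per the submitters' processing notes, CASAVA 1.8.2, Trimmomatic 0.35, STAR 2.5.1b and GRCh38 were used, with no roles given. The annotation release was not given in the sources used here. Analyses took the reverse-strand counts: the library kit is stranded, and forward counts came to 6.13% to 6.59% of reverse counts. Reads on no annotated exon (6.37% to 7.87%) and reads fitting more than 1 gene (3.11% to 3.15%) stayed out.

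Of 58219 identifiers, 41805 had a symbol, and 57878 were found in GENCODE release 29, which gave positions and exon lengths. Using edgeR 4.0.16 (R 4.3.3), libraries were filtered with filterByExpr at a minimum count of 10, scaled by TMM and compared by a quasi-likelihood F-test with no covariate. P-values were Benjamini-Hochberg adjusted over 14723 genes, with a threshold of 0.05. SEs derive from the F statistic, and CPM are TMM-scaled. DESeq2 1.42.0, limma 3.58.1 (voom), other scalings, other filters, unstranded counts, a replicate block and leaving out each library were the 15 alternatives. No test of a whole list was made.

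The genes and the 11 lists were chosen with earlier results of these data known. Named are the 6 genes, up to 4 called genes with the lowest adjusted p per list, MLX and MLXIPL, the 5 genes most like TXNIP and ARRDC4, and markers. A few others were named after their values were seen. Promoter sequences are from RefSeq (GRCh38.p14).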

Additional observations from a re-analysis of the deposited data

How the results depend on the processing

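TXNIP, ARRDC3 and MLXIP kept their direction and their side of the threshold in all 15 alternatives, with log2 fold changes of -0.94 to -0.77, -0.71 to -0.62 and 0.030 to 0.11. Of the 6 members, 4 were called lower under the 3 other scalings, 2 with DESeq2 and 2 to 3 with 1 library left out. ARRDC1 was not called with DESeq2 (-0.20) or with no low-count filter (-0.17), and was at -0.23 to -0.15 with a library left out. ARRDC2 was not called with DESeq2 (-0.32) and was at -0.46 to -0.24 with a library left out. The log2 fold change of ARRDC4, which was never called, was above 0 with DESeq2 (0.0040), limma-voom (0.043), no low-count filter (0.011) and unstranded counts (0.00926), and at -0.20 to 0.34 with a library left out. Its 21 to 47 reads limit what could be seen. For these the cause was not tested.

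The 1 arrestin-fold gene called higher became 0 with DESeq2, limma-voom, upper quartile factors, library size only, the filter of 1 CPM and the replicate block, and 0 to 1 with a library left out. The 1 NEDD4-list gene called lower became 0 with DESeq2, no filter, unstranded counts and the replicate block, 2 with upper quartile factors and library size only, and 0 to 1 with a library left out. Of AMPK genes called higher, 1 was left with DESeq2, upper quartile factors and library size only, and 1 to 3 with a library left out. The MLX and MAX network had 1 to 3 higher with a library left out, and 5 carbohydrate genes were lower with DESeq2. Over all genes tested, 4123 were higher and 4024 lower (3522 to 4316 and 3134 to 4626 over the alternatives).

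Same-numbered libraries did not deviate together (correlations of -0.028, 0.0014 and -0.019 across genes). Differently numbered ones gave -0.022 to 0.043. Such values near 0 cannot show whether same-numbered libraries were prepared together, and the labels do not say. With the replicate block 4054 genes were higher and 3936 lower, and 4 members were lower, as without it.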
